A study of Mus musculus with 15 samples.

Results

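Pparg encodes PPARg, a nuclear receptor that binds DNA with a retinoid X receptor and switches on genes of fatty acid uptake and storage. It was followed together with 9 further genes that are known from alveolar macrophages or from lipid handling: Siglecf, Cidec, Krt79, Lpl, Plin2, Car4, Cebpa, Cebpb and Sfrp1. The members were taken as all probes that the platform annotation gives to exactly 1 of these 10 symbols. All 10 had a probe, 11 probes in all since Sfrp1 had 2, out of 12909 genes with a symbol on the array. All 10 passed the filter on missing values, a value on 3 or more arrays in each group, as did 13273 features in all.

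The samples were total RNA of mouse alveolar macrophages, the resident phagocytes of the airspaces, on 15 spotted 2-colour arrays, each against a reference labelled as one of macrophages. There were 3 groups of 5 arrays: beta6 null mice with TGFb1 (b6-/-TGFb+/+Dox, called the TGFb1 group here), beta6 null mice (b6-/-Dox) and wild type mice (b6+/+Dox). All mice, wild type included, had received doxycycline, an antibiotic that also serves to switch on inducible transgenes. The integrin beta6 subunit, with alphav, is found on lung epithelium, where it turns latent TGFb into its active form, so the comparisons ask how macrophages differ in its absence and whether TGFb1 alters that. The labels name neither the promoter that drives TGFb1 nor the strain, age or sex of the mice, nor whether each array is its own animal. A p-value here therefore covers the variation among these arrays alone, which could be technical. Wild type mice with TGFb1 were not analysed here.

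In mouse lung, PPARg is known as a factor that fetal monocytes need to become alveolar macrophages. The cytokine GM-CSF induces it, and TGFb signalling is also needed for these cells to form and persist. Alveolar macrophages that lack PPARg are known to fill with lipid, since clearing surfactant from the airspaces is a main task of this cell. The C/EBP factors Cebpa and Cebpb act beside PPARg in fat cells and in myeloid cells.

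Stretches of 300 bases around annotated start sites, from RefSeq on the build GRCm38.p6, were found for 8 of the 10 members, 11 windows in all. Lpl and Sfrp1 are named only. Both strands were searched for 4 motifs. The single site of nuclear receptors, AGGTCA, lay in 3 windows, those of Pparg start sites 1 and 2 and of Plin2, and in 16.3% of 32851 promoter windows of the genome. The PPAR and retinoid X receptor repeat of AGGTCA with 1 base between copies, AGGTCANAGGTCA, which contains the single site, lay in 0 member windows and in 0.0396% of all. A C/EBP motif, TTGCNNAA, lay in 2 member windows and in 10.8% of all. The SMAD motif GTCTAGAC, of the factors that carry TGFb signals, lay in 0 member windows and in 0.213% of all. A match is a stretch of letters, not a shown binding site. Printed are the 2 windows with a C/EBP match, which belong to the members with a difference that passed the test, Pparg and Cidec. The other windows of these members, with AGGTCA at Pparg start sites 1 and 2, are not printed. Capitals mark the matches, which begin at -215 and -16 from Pparg start site 3 and at -198 from Cidec start site 2. The window of Pparg start site 3 spans chr6:115421816-115422115 on the plus strand and that of Cidec start site 2 chr6:113434715-113435014 on the minus strand.
Pparg start site 3: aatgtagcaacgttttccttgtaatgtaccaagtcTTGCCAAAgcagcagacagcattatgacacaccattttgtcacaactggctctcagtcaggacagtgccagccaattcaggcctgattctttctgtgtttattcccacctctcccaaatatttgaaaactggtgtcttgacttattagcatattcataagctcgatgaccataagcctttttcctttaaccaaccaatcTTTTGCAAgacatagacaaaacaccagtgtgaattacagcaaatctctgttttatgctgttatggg
Cidec start site 2: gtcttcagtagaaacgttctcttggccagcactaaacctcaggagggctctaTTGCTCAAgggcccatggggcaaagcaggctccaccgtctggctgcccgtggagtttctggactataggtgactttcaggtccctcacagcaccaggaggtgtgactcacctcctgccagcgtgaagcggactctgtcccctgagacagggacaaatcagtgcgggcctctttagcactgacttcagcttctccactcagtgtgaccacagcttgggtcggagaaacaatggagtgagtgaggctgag

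The values are log ratios, treated as log2 of sample over reference with each array's median set to 0. Neither the base nor the direction is stated in the sources used here. The direction rests on the order of the channels and on Mmp12, macrophage elastase, known to be high in beta6 null macrophages, and an inverted ratio would turn every sign below. A value below 0 therefore means less RNA than in the reference, and levels of different genes cannot be set against each other. Between 11590 and 16457 of 17195 probes had a value on an array. The SD of the values over probes ran between 0.841 and 2.01, with beta6 null replicate 1 (1.998) and wild type replicate 2 (2.01) the widest and the 2 with fewest values. Differences were tested with limma across all features, and adjusted p is Benjamini-Hochberg over all 13273. The median difference of all features was 0.12 between the TGFb1 group and beta6 null, and -0.05 between beta6 null and wild type.

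Pparg was 3.59-fold higher in the TGFb1 group than in beta6 null macrophages. Its log2 ratio was -1.65, -1.77, -1.18, -1.23 and -1.97 on the 5 TGFb1 arrays. It was -4.26, -3.33, -3.02, -3.27 and -3.14 on the 5 beta6 null arrays. It was -2.38, -3.11, -1.63, -2.70 and -1.46 on the 5 wild type arrays. All 5 TGFb1 arrays lay above all 5 beta6 null arrays, while 4 of 5 beta6 null arrays lay below the lowest wild type array, and wild type overlapped with both other groups. The means were -1.56 ± 0.35 in the TGFb1 group, -3.40 ± 0.49 in beta6 null and -2.26 ± 0.70 in wild type (SD, n = 5 each).

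The TGFb1 group exceeded beta6 null by 1.84 for Pparg (SE 0.36, limma adjusted p = 0.0332). Beta6 null minus wild type was -1.14 (SE 0.36, limma adjusted p = 0.191), which did not pass, and the TGFb1 group minus wild type was 0.70 (SE 0.36, limma adjusted p = 0.812), which did not pass either. Tested by itself with a two-sided exact permutation test, Pparg gave p = 0.00794 with TGFb1 against beta6 null, the smallest that 5 against 5 arrays allow. The exact permutation p was 0.0159 for beta6 null against wild type and 0.0952 for TGFb1 against wild type. Adjusted over these 3 comparisons, the exact permutation values were 0.0238, 0.0238 and 0.0952 in the same order. With equal spread of the arrays, beta6 null minus wild type was -0.61 (exact permutation p = 0.222, 0.333 adjusted over the 3) and under quantile normalisation -0.78 (exact permutation p = 0.111, 0.167 adjusted). The 3 comparisons share arrays and are not independent of each other. Pparg was chosen with earlier results of these data known, and the adjustment over 3 takes no account of the other members or features.

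The sample titles end in 1 or 2, a suffix the labels do not explain. Within suffix 1, Pparg differed by 2.08 between 3 TGFb1 and 4 beta6 null arrays, and within suffix 2 by 1.33 between 2 TGFb1 arrays and 1 beta6 null array. With the suffix as a block the difference was 1.80 (limma adjusted p = 0.0548). The call also ended without TGFb1 replicate 1, 2, 3 or 4 (adjusted p = 0.0714, 0.0573, 0.103 and 0.0953) and without beta6 null replicate 2 or 4 (0.0741 and 0.0515), with the difference at 1.63 to 1.95 over all arrays left out in turn. Scaling the arrays to an equal spread gave 1.01 for Pparg (limma adjusted p = 0.347; exact permutation p = 0.0635) and quantile normalisation gave 1.09 (adjusted p = 0.310; exact permutation p = 0.0556). With equal spread the TGFb1 and beta6 null arrays overlapped, at -2.81 on TGFb1 replicate 5 and -2.15 on beta6 null replicate 1.

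**Figure D1:**
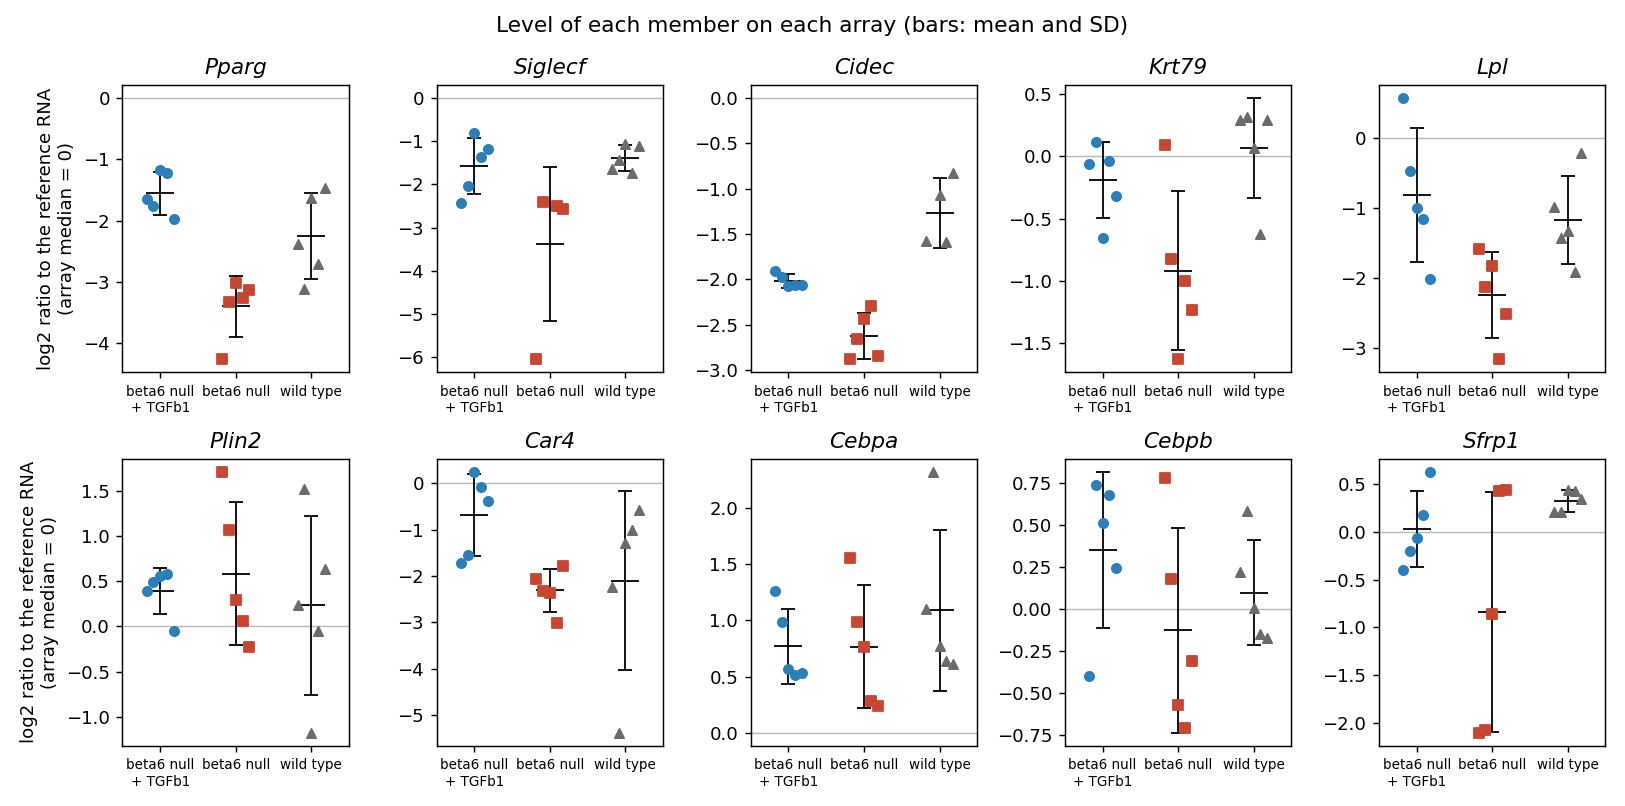
Log2 ratio to the reference RNA (array median at 0) of the 10 members, 1 point per array, for beta6 null with TGFb1, beta6 null and wild type from left to right, with bars for the mean and SD; each panel has its own vertical scale. Pparg lies between -1.97 and -1.18 with TGFb1 and between -4.26 and -3.02 in beta6 null, and beta6 null replicate 1 lies far down for Siglecf.

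Cidec, which lets lipid droplets fuse and grow, fell in beta6 null macrophages to 0.391 of the wild type level. Its log2 ratio was -1.91, -1.98, -2.08, -2.06 and -2.06 on the TGFb1 arrays. It was -2.88, -2.66, -2.43, -2.29 and -2.84 on the beta6 null arrays. It was -1.58, -1.07, -1.59 and -0.82 on 4 wild type arrays, with no value on wild type replicate 2. No 2 groups overlapped: beta6 null was lowest, the TGFb1 group in the middle and wild type highest.

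Beta6 null minus wild type was -1.35 for Cidec (SE 0.25, limma adjusted p = 0.0216). The TGFb1 group minus beta6 null was 0.60 (SE 0.24, limma adjusted p = 0.251) and the TGFb1 group minus wild type was -0.75 (SE 0.25, limma adjusted p = 0.757), neither past the threshold. Within suffix 1 the beta6 null minus wild type difference of Cidec was -0.98 (4 arrays against 1) and within suffix 2 it was -1.68 (1 against 3). The call ended with the suffix as a block (-1.32, adjusted p = 0.0906), with equal spread (-0.79, adjusted p = 0.558), and without wild type replicate 3 (adjusted p = 0.0775), wild type replicate 5 (0.0804) or beta6 null replicate 2 (at the threshold). The order of the groups also depends on the scaling: with equal spread, Cidec was -0.15 in the TGFb1 group minus beta6 null, and -0.08 under quantile normalisation.

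Lpl, the lipase that frees fatty acids from lipoproteins, had log2 ratios of 0.58, -0.47, -0.999, -1.16 and -2.01 on the TGFb1 arrays. On the beta6 null arrays it had -1.59, -2.13, -1.83, -3.16 and -2.51. On the wild type arrays it had -0.98, -1.43, -1.32, -1.92 and -0.21. The TGFb1 values spread over more than the distance between the group means, and 4 of 5 TGFb1 arrays lay above every beta6 null array. The TGFb1 group minus beta6 null was 1.43 (SE 0.47, limma adjusted p = 0.162) and beta6 null minus wild type was -1.07 (SE 0.47, limma adjusted p = 0.382).

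Plin2, a coat protein of lipid droplets, showed another pattern. Its log2 ratio lay between -0.05 and 0.58 on the TGFb1 arrays, between -0.22 and 1.71 on the beta6 null arrays and between -1.18 and 1.52 on the wild type arrays. The groups overlapped throughout. Beta6 null minus wild type was 0.35 (95% interval -0.64 to 1.33) and the TGFb1 group minus beta6 null was -0.19 (95% interval -1.17 to 0.79, limma adjusted p = 0.889). That last sign turned with equal spread (0.12) and under quantile normalisation (0.10). Plin2 was the member above 0 in beta6 null against wild type and the member below 0 in the TGFb1 group against beta6 null.

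Siglecf, a sialic acid-binding lectin that marks mouse alveolar macrophages and also eosinophils, had log2 ratios of -2.44, -2.04, -0.82, -1.37 and -1.19 on the TGFb1 arrays. Beta6 null arrays gave -6.04, -2.40, -2.51 and -2.57, with no value on beta6 null replicate 3. Wild type arrays gave -1.65, -1.43, -1.08, -1.73 and -1.11. Every measured beta6 null array lay below every wild type array, and 4 of 5 TGFb1 arrays lay above every beta6 null array. The difference was -1.98 in beta6 null minus wild type (SE 0.64, limma adjusted p = 0.223) and 1.81 in the TGFb1 group minus beta6 null (SE 0.64, limma adjusted p = 0.206), neither past the threshold. Beta6 null replicate 1 carried much of both: without it they were -1.09 and 0.92. In RNA of bulk samples, fewer cells of a type and less RNA per cell cannot be told apart, for Siglecf as for every member.

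Car4, carbonic anhydrase 4, an enzyme anchored on the cell surface, had log2 ratios of -1.71, -1.55, 0.25, -0.08 and -0.38 on the TGFb1 arrays. On the beta6 null arrays it had -2.06, -2.33, -2.36, -3.02 and -1.79. On the wild type arrays it had -2.24, -5.38, -1.30, -1.0 and -0.58. All TGFb1 arrays lay above all beta6 null arrays, and the value of wild type replicate 2 was the lowest of the 15. The TGFb1 group minus beta6 null was 1.62 (SE 0.74, limma adjusted p = 0.320), and beta6 null minus wild type was -0.21 (95% interval -1.78 to 1.36). That second sign differed between the suffixes, at 1.37 within suffix 1 and -0.83 within suffix 2.

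Krt79, a keratin also known from skin glands, lay between -0.65 and 0.12 on the TGFb1 arrays, between -1.63 and 0.09 on the beta6 null arrays and between -0.62 and 0.32 on the wild type arrays. Of the 5 beta6 null arrays, 4 lay below every wild type array. Beta6 null minus wild type was -0.99 for Krt79 (SE 0.33, limma adjusted p = 0.223) and the TGFb1 group minus beta6 null was 0.73 (SE 0.33, limma adjusted p = 0.310).

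Sfrp1, a secreted inhibitor of Wnt signals, was read by 2 probes that disagreed. The first probe gave -1.20, -0.87, 0.31, -0.21 and 0.82 on the TGFb1 arrays. It gave -4.15, -5.22, -2.77, 0.51 and 0.46 on the beta6 null arrays. It gave -0.26, -0.68, 0.15, 0.51 and 0.20 on the wild type arrays. Thus 3 beta6 null arrays were far below all others, and 2 lay within the range of the TGFb1 arrays. The second probe lay between -0.43 and 0.57 with TGFb1, between -0.06 and 1.06 in beta6 null and between 0.34 and 1.09 in wild type. Beta6 null minus wild type was -2.22 by the first probe (SE 0.94) and -0.11 by the second (SE 0.29). The TGFb1 group minus beta6 null was 2.004 by the first (SE 0.94) and -0.27 by the second (SE 0.29). None of the 4 passed (limma adjusted p at 0.327 or above), and the average over both probes, used below, is uncertain.

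Cebpa and Cebpb, the C/EBP factors among the members, did not pass in any comparison; with array weights Cebpb passed in the TGFb1 group minus beta6 null (0.86, limma adjusted p = 0.0379). Cebpa lay between 0.51 and 1.26 on the TGFb1 arrays, between 0.24 and 1.56 on the beta6 null arrays and between 0.61 and 2.33 on the wild type arrays. The TGFb1 group minus beta6 null was 0.003 for Cebpa (95% interval -0.78 to 0.78), and beta6 null minus wild type was -0.32 (95% interval -1.10 to 0.46). Cebpb lay between -0.40 and 0.74 with TGFb1, between -0.71 and 0.78 in beta6 null and between -0.17 and 0.58 in wild type. Its differences were 0.48 in the TGFb1 group minus beta6 null (95% interval -0.22 to 1.18) and -0.22 in beta6 null minus wild type (95% interval -0.92 to 0.48).

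**Figure D2:**
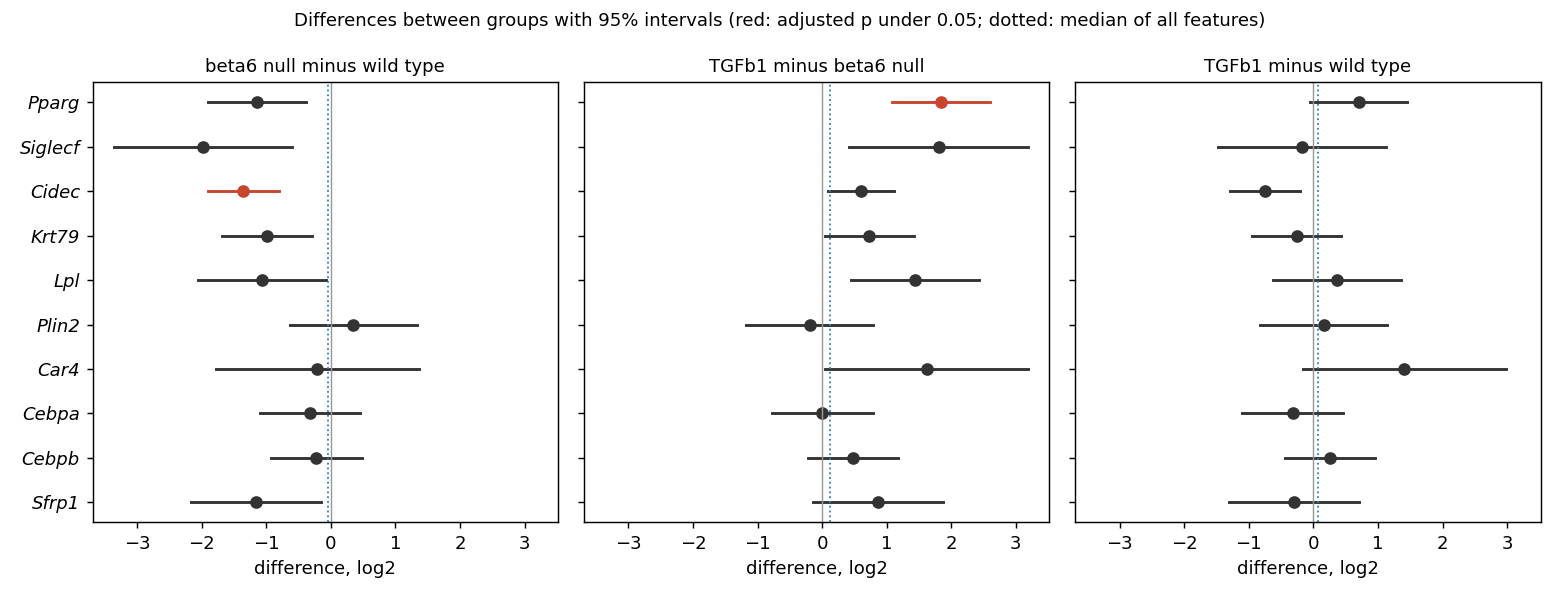
Difference in log2 ratio between groups with its 95% interval from the limma fit, for beta6 null minus wild type, the TGFb1 group minus beta6 null and the TGFb1 group minus wild type; red marks an adjusted p under 0.05 and the dotted line the median of all features. Cidec is red at -1.35 in the first panel and Pparg at 1.84 in the second.

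Taken over the 10 members, 1 fell in beta6 null against wild type (Cidec), where 0.588% of all features fell, and 0 rose, where 0.362% did. In the TGFb1 group against beta6 null 1 rose (Pparg), where 0.58% of all features rose, and 0 fell, where 0.128% did. In the TGFb1 group against wild type 0 rose and 0 fell by limma, the same as the 0% of all features in either direction, with 833 features, 1 of them a member (Cidec), at an unadjusted p under 0.05. The split of all called features changed with the scaling: 48 higher and 78 lower in beta6 null against wild type became 30 and 31 with equal spread and 40 and 36 under quantile normalisation. For TGFb1 minus beta6 null, 77 and 17 became 8 and 3 with equal spread and 8 and 7 under quantile normalisation.

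By sign alone, 9 of 10 members lay below 0 in beta6 null against wild type, with a median of -1.03, beside a median of -0.05 and 53.1% below 0 over all features. In the TGFb1 group against beta6 null, 9 of 10 lay above 0, with a median of 0.80, beside a median of 0.12 and 43.3% below 0 over all features. Among the 9, Cebpa was at 0.003, and Sfrp1 was the average of probes that differed in sign. Under equal spread and quantile normalisation Cidec and Plin2 changed sign in that comparison. Against wild type the TGFb1 group had 5 members above and 5 below 0, with a median of -0.01. All beta6 null arrays lay below all wild type arrays for 2 members, Siglecf and Cidec, as for 3.06% of all features. All TGFb1 arrays lay above all beta6 null arrays for 3 members, Pparg, Cidec and Car4, as for 6.36% of all features. All TGFb1 arrays lay below all wild type arrays for Cidec, as for 1.09% of all features. These separations are of median-centred values, and each of them ended with equal spread. There Pparg was -2.81 on TGFb1 replicate 5 and -2.15 on beta6 null replicate 1. Car4 was -1.72 on TGFb1 replicate 1 and -1.04 on beta6 null replicate 1. Cidec was -1.45 on beta6 null replicate 1, -1.91 on TGFb1 replicate 1 and -2.02 on wild type replicate 4. Siglecf was -1.80 on beta6 null replicate 2 and -2.20 on wild type replicate 4.

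Array by array, Cidec, Siglecf, Lpl and Car4 had a positive r with Pparg under median centring and under equal spread, and the sign of the other members depended on the scaling. Of 9 relations with Pparg, each computed on deviations from the group means over 15 arrays (14 for Siglecf and Cidec), 5 were positive under median centring. Over 5503 genes with a value on all arrays the median of such r was 0.186. The 5th and 95th percentiles were -0.59 and 0.77. Cidec had r = 0.66 (permutation p = 0.0749) and rho = 0.62 (permutation p = 0.115), and r = 0.50 without the 2 arrays farthest from the median Pparg deviation among those with a Cidec value, beta6 null replicate 1 and wild type replicate 4. Siglecf had r = 0.61 (permutation p = 0.0131) and rho = 0.54 (permutation p = 0.0175), and r = 0.50 without its own 2 farthest arrays, beta6 null replicate 1 and wild type replicate 2, the pair also left out for the members that follow. Car4 had r = 0.57 and Sfrp1 0.31, while Lpl, at 0.15, was close to 0 and below the median over the 5503 genes. Cebpa had r = -0.69 (permutation p = 0.0111) and rho = -0.55 (permutation p = 0.057), but r = -0.31 without that pair, so that much of it rests on these 2 arrays. Plin2 was at -0.54, Cebpb at -0.47 and Krt79 at -0.38, and without the same pair at -0.08, -0.04 and 0.07.

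None of these relations passed over all features. With the Pparg level as a covariate beside the group means, 0 of 9 members had a positive slope past the threshold, as for 0% of 13272 features, and the smallest limma adjusted p was 0.149, of Cebpa. The only slope called among all features was negative, that of Cavin1, a caveola protein (-5.39, SE 0.45, limma adjusted p = 0.0157), named after its value was seen. With wild type replicate 4 left out, 755 slopes passed. Cebpa passed in that fit alone of the 15 that left out an array (limma adjusted p = 0.0462), and no other member passed in any of them.

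Over all arrays without taking out group means, r with Pparg was 0.75 for Siglecf, 0.67 for Cidec, 0.64 for Car4, 0.62 for Lpl, 0.53 for Sfrp1, 0.34 for Krt79, 0.12 for Cebpb, -0.32 for Cebpa and -0.40 for Plin2. These values hold the group differences already given. Within suffix 1 r was 0.77 for Siglecf (8 arrays) and 0.73 for Cidec (8 arrays), and within suffix 2 0.57 and 0.75 (6 arrays each). For Cebpa it was -0.44 (9 arrays) and 0.63 (6 arrays), opposite in sign. These suffix values are of median centring. With equal spread Cidec had r = 0.02 within suffix 1 and 0.76 within suffix 2. Under quantile normalisation it had -0.07 and 0.84. Siglecf had 0.63 and 0.65 with equal spread, and 0.64 and 0.72 under quantile normalisation. Cebpa had 0.52 and 0.86 with equal spread. Over all arrays with a value Cidec had r = 0.51 with equal spread, and 0.04 without beta6 null replicates 4 and 5.

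The spread of an array moved with these relations. Pparg itself correlated with the SD of the array at r = -0.62 on deviations from group means, Cebpa at 0.95 and Plin2 at 0.71. With the arrays scaled to equal spread, 8 of 9 relations within groups were positive: Cidec 0.86, Lpl 0.76, Krt79 0.60, Siglecf 0.54, Cebpa 0.47, Cebpb 0.43, Plin2 0.35 and Car4 0.20, with Sfrp1 at -0.73. Krt79, Plin2, Cebpa, Cebpb and Sfrp1 thus changed sign. Over 5503 genes with a value on all arrays the median r was then 0.035, with 5th and 95th percentiles of -0.53 and 0.76. Even then Pparg correlated with array SD, now at 0.73, and Cidec at 0.83. Under equal spread 0 of 9 members passed (smallest limma adjusted p 0.0684, of Cidec), where 0.542% of all features had a positive slope past the threshold. The r of Siglecf with equal spread had permutation p = 0.0789, and was 0.30 without beta6 null replicate 5 and wild type replicate 4. Under quantile normalisation it was 0.35 (permutation p = 0.322). Cidec went the other way, with permutation p = 0.00114 with equal spread and r = 0.88 (permutation p = 0.0007) under quantile normalisation.

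**Figure D3:**
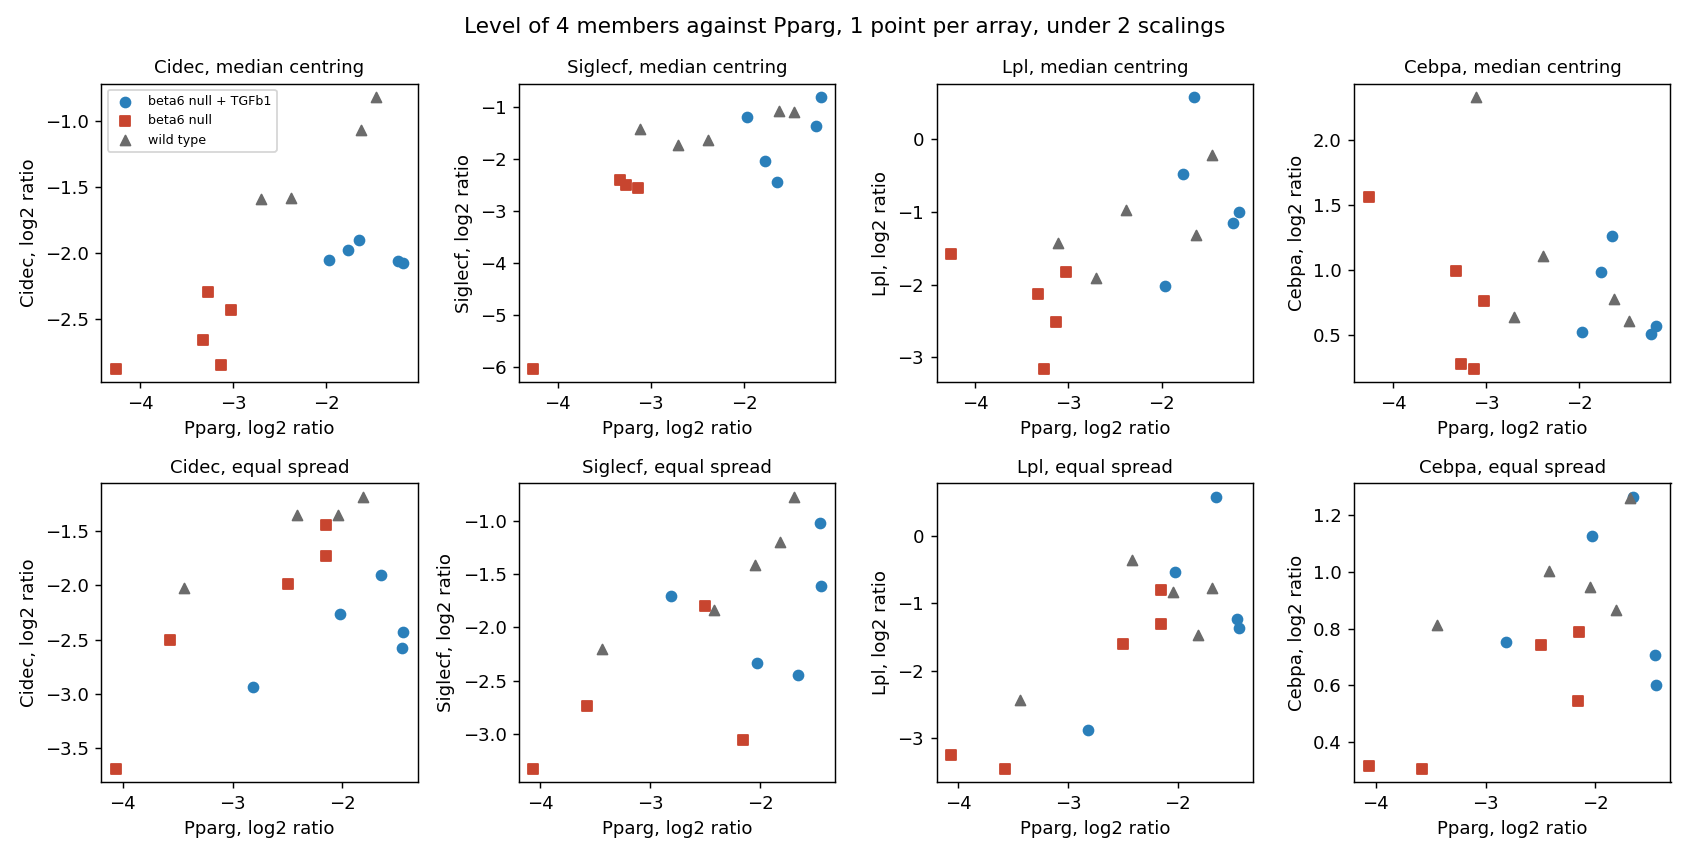
Log2 ratios of Cidec, Siglecf, Lpl and Cebpa against Pparg, 1 point per array, with median centring in the upper row and with equal spread of the arrays in the lower row; marker shape and colour give the group. Cebpa slopes down against Pparg in the upper row (pooled r = -0.32) and up in the lower row (0.59), while Lpl slopes up in both (0.62 and 0.79).

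**Figure D4:**
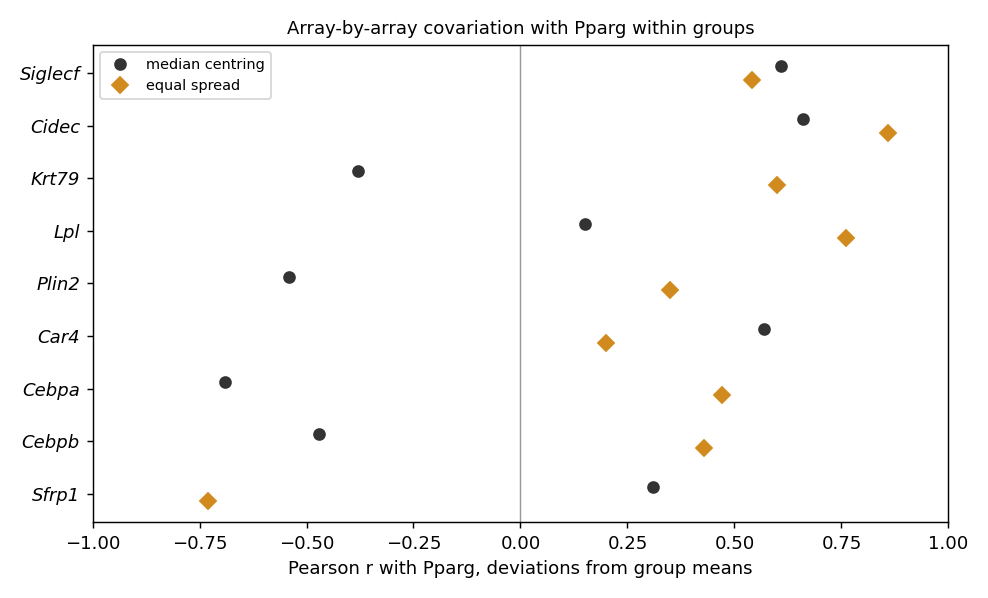
Pearson r of 9 members with Pparg on deviations from group means, with median centring (circles) and with equal spread (diamonds). Siglecf, Cidec, Lpl and Car4 lie right of 0 under both, and the other 5 members lie on opposite sides.

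The genes most like Pparg were sought among 5503 genes with a value on all 15 arrays, by Pearson r over the arrays after median centring. The median of all r was 0.19 and the 5th and 95th percentiles were -0.58 and 0.81. The highest were Ccnd2, a cyclin (0.979), Arcn1, a coat protein of transport vesicles (0.966), Tax1bp3 (0.963), Uqcrfs1, a subunit of respiratory complex III (0.959), and Hpcal1 (0.958). The lowest were Dennd1c (-0.865), the AP-1 factor Jund (-0.863), Nsun3 (-0.853), Mccc1 (-0.851) and the laminin Lamc1 (-0.842). On deviations from group means the highest were Uqcrfs1 (0.948), 2810025M15Rik (0.945), Cd48 (0.939), Tmem179b (0.938) and Pdcl3 (0.937), and the lowest were Mccc1 (-0.856), Ccdc97 (-0.848), Myl6 (-0.846), Actl6a (-0.829) and Akr1c21 (-0.816). Among those 5503 genes, the first order placed Car4 at 879, Lpl at 996, Sfrp1 at 1345, Krt79 at 2140, Cebpb at 3009, Cebpa at 4485 and Plin2 at 4747. The second, by deviations from group means, placed Car4 at 1205, Sfrp1 at 2296, Lpl at 2913, Krt79 at 4630, Cebpb at 4903, Plin2 at 5110 and Cebpa at 5424. Siglecf and Cidec were not ranked, since each lacked a value on 1 array. The genes named depend on the scaling. With equal spread the highest over the arrays were Atp6v0e (0.974), Aym1 (0.958), Arcn1 (0.957), Reep5 (0.955) and Snrnp70 (0.955), so that Arcn1 alone stayed. The lowest were then Rab1b (-0.808), Atp2a2 (-0.803), Ugt3a2 (-0.797), Sft2d2 (-0.783) and Egfr (-0.783), none of them named above. On deviations from group means no gene stayed among the highest or the lowest. All points share arrays, depth of measurement and scaling.

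Around Pparg, most partner and target genes did not pass. Of 12 tested partners and relatives of PPARg, 1 fell in beta6 null against wild type and rose in the TGFb1 group against beta6 null, Nrip1, a corepressor of nuclear receptors (-1.25, limma adjusted p = 0.0216, and 1.12, limma adjusted p = 0.045). Its 2 probes disagreed: 1 gave -2.57 and 2.03 in these comparisons and the other 0.08 and 0.20. Over all features 0.588% fell in beta6 null against wild type and 0.58% rose in the TGFb1 group against beta6 null. The retinoid X receptor Rxra was at 0.38 in beta6 null against wild type, and Nr1h3, the oxysterol receptor LXRa, at -0.71, neither past the threshold. The list had a median of -0.17 in beta6 null against wild type and 0.06 in the TGFb1 group against beta6 null.

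Of 25 tested target genes of lipid handling, 2 fell in beta6 null against wild type, where 0.588% of all features fell. The 2 targets were Olr1, a receptor of oxidised lipoprotein, to 0.12 of the wild type level (-3.06, SE 0.31, limma adjusted p = 0.000183), and Scarb1, the HDL receptor (-1.18, SE 0.26, limma adjusted p = 0.0455). In the TGFb1 group against beta6 null 1 of the 25 rose, where 0.58% of all features rose. Olr1 rose in the TGFb1 group against beta6 null (2.84, SE 0.31, limma adjusted p = 0.00114), and Scarb1, at 1.13, did not pass (limma adjusted p = 0.0605). Classical targets known from fat cells were not among the calls: Fabp4 was at 0.30 and Cd36 at 0.86 in beta6 null against wild type, and Fabp4 at 0.35 and Cd36 at -0.57 in the TGFb1 group against beta6 null. Scd1, a fatty acid desaturase, had the largest value above 0 in beta6 null against wild type (2.76, limma adjusted p = 0.0647). The medians over the 25 were -0.02 in beta6 null against wild type and 0.24 in the TGFb1 group against beta6 null.

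The closer relatives of the members gave 0 calls by limma, with 0 to 2 genes of each of these lists at an unadjusted p under 0.05 in beta6 null against wild type and in the TGFb1 group against beta6 null. In lipid droplet coat and CIDE genes 0 of 10 passed in each comparison, with 6 of 10 above 0 and a median of 0.17 in beta6 null against wild type. Hilpda, a droplet protein that inhibits a lipase, was at 1.73 there (limma adjusted p = 0.172) and Cideb, a relative of Cidec, at 1.63 (limma adjusted p = 0.264), opposite in sign to Cidec. Plin4, another droplet coat protein, was at -1.52 in the TGFb1 group against beta6 null (limma adjusted p = 0.20) and -2.03 in the TGFb1 group against wild type (limma adjusted p = 0.651). Among lipases and their regulators 0 of 9 passed. Hormone-sensitive lipase Lipe was at -1.99 in beta6 null against wild type (limma adjusted p = 0.256) and 1.22 in the TGFb1 group against beta6 null. Nor did any of 5 further C/EBP genes pass, 5 Siglec genes, 12 carbonic anhydrases, 14 Wnt inhibitors and receptors or 14 keratins, a list that leaves out Krt19, counted below. The nearest of these lists were Car6, at 3.57 in beta6 null against wild type (limma adjusted p = 0.0664), Ddit3, a C/EBP relative of the stress response, at 1.63 (0.178), and in the TGFb1 group against beta6 null Krt20, at 2.02 (0.158). Siglece was at -1.65 in the TGFb1 group against beta6 null (limma adjusted p = 0.268) and Fzd1 at -1.95 in beta6 null against wild type (limma adjusted p = 0.374).

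Several other genes of alveolar macrophage identity changed. Of 23 tested, with the members left out, 6 fell and 1 rose in beta6 null against wild type, where 0.588% of all features fell and 0.362% rose. In the TGFb1 group against beta6 null 4 rose and 1 fell, where 0.58% of all features rose and 0.128% fell. The list was chosen with earlier results of these data known, so these counts are not independent of them. Krt19 and Flt1, among the 6 that fell, and Krt19 among the 4 that rose, are counted again below as markers of epithelium and endothelium. Fabp1, a fatty acid-binding protein, fell to 0.103 of the wild type level (-3.28, limma adjusted p = 0.000183) and rose in the TGFb1 group against beta6 null (2.53, limma adjusted p = 0.00276). Il18, a cytokine, was at -2.12 and 2.46 in the same comparisons (limma adjusted p = 0.00117 and 0.00114). The transcription factor Egr2 fell in beta6 null (-2.95, limma adjusted p = 0.00026) and did not pass with TGFb1 (1.19, limma adjusted p = 0.0999). Fabp5, another fatty acid-binding protein, ran the opposite way, at 2.10 in beta6 null against wild type and -1.17 in the TGFb1 group against beta6 null (limma adjusted p = 0.00026 and 0.0332). In beta6 null against wild type 16 of the 23 did not pass, among them Marco (-0.50) and Itgax (0.04).

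Markers of other cells moved too, and their part in the members' values was not tested. General macrophage markers, 9 tested and 6 with a value on all arrays, gave 0 calls, with a mean log2 ratio per array of -0.30 to 0.43 in the TGFb1 group, -0.72 to 0.22 in beta6 null and -0.54 to 0.20 in wild type. Of 14 dendritic cell and monocyte markers, Dpp4 rose (3.56) and Ly75 fell (-2.72) in beta6 null against wild type, and Dpp4 (-3.25) and Itgae (-3.89) fell in the TGFb1 group against beta6 null. Over all 14, 11 lay above 0 in beta6 null against wild type, with a median of 1.13 and 7 at an unadjusted p under 0.05. In the TGFb1 group against beta6 null 10 of 14 lay below 0, with a median of -0.77 and 6 at an unadjusted p under 0.05. The 5 measured on all arrays averaged -0.64 to -0.03 with TGFb1, -0.92 to -0.42 in beta6 null and -0.79 to -0.14 in wild type, a subset that leaves out most of the 14. Of 9 eosinophil, basophil and mast cell markers 0 passed, and the 2 measured on all arrays averaged -2.05 to 0.13, -2.21 to 0.34 and -2.66 to 0.51 in the TGFb1, beta6 null and wild type groups. Of 12 lung epithelium markers 1 rose (Sftpc, 2.18) and 2 fell (Epcam, -2.34, and Krt19, -2.01) in beta6 null against wild type, and Epcam (1.98) and Krt19 (2.37) rose in the TGFb1 group against beta6 null. By sign, 8 of the 12 lay above 0 in beta6 null against wild type, with a median of 0.26. In the TGFb1 group against beta6 null 7 of the 12 lay below 0, with a median of -0.25. Of 8 neutrophil markers S100a8 rose (2.13), of 7 B and plasma cell markers Blnk rose (2.87), and Flt1 (-4.16) and Eng (-1.97) fell among 7 markers of fibroblasts and endothelium, all in beta6 null against wild type. The B and plasma cell markers lay above 0 there for 6 of 7, with a median of 1.34, and below 0 for 6 of 7 in the TGFb1 group against beta6 null, with a median of -0.72. The neutrophil markers had 4 above and 4 below 0 in beta6 null against wild type, with a median of 0.12. In the TGFb1 group against beta6 null 6 of these 8 lay below 0, with a median of -0.74. Of the fibroblast and endothelium markers 5 of 7 lay below 0 in beta6 null against wild type, with a median of -0.32. Adipocyte (4 tested), T and NK cell (11) and erythroid (2) markers gave 0 calls by limma, and 0 to 2 of each had an unadjusted p under 0.05. A ratio to a reference has no zero, so whether a marker is absent cannot be read from these values.

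Xist, a noncoding RNA that silences an X chromosome in female cells, moved with the same comparisons. Its level was -3.07 ± 0.49 in the TGFb1 group, -0.40 ± 1.48 in beta6 null and -3.10 ± 0.71 in wild type (SD, n = 5 each). The beta6 null arrays gave -1.45, 0.22, 0.79, -2.46 and 0.88. The highest value was -2.27 in the TGFb1 group and -2.37 in wild type. The labels do not give the sex of the mice, so sex and genotype cannot be told apart in these comparisons. With the Xist level of each array as a covariate, Pparg was 1.93 in the TGFb1 group minus beta6 null (limma adjusted p = 0.492) and Cidec was -1.26 in beta6 null minus wild type (limma adjusted p = 0.548), with SE 0.58 and 0.42. By limma 0 features then passed in any comparison. At an unadjusted p under 0.05 there were 926 features for beta6 null minus wild type, 1096 for TGFb1 minus beta6 null and 764 for TGFb1 minus wild type. Tgfb1 itself lay between -2.21 and -0.14 in the TGFb1 group, between -2.76 and 1.04 in beta6 null and between -4.84 and 0.12 in wild type. Those ranges overlapped, and the probe did not separate the TGFb1 group from the others.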

How the data were processed

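Total RNA of mouse alveolar macrophages was measured on 15 two-channel arrays, 5 per group, with groups taken from the labels. The values are the authors' deposited log ratios per probe, treated as log2; the base, the direction, the dyes, background correction and normalisation are not stated by any label or header, and are thus not given in the sources used here. Deposited array medians lay between -0.05 and 0.03.

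Of 17225 probes, 30 control spots were left out. Of the rest, 13972 carried 1 gene symbol, 13 several and 3210 none here. For 13869 probes the symbol was brought up to date through the Entrez ID, with RefSeq genes of GRCm38.p6. Each array was centred on its median, probes of 1 gene were averaged, and a feature was tested when each group had 3 or more arrays with a value. A model with 3 group means was fitted with limma 3.58.1 (lmFit, eBayes) in R 4.3.3, with Benjamini-Hochberg adjustment over 13273 features and a threshold of 0.05. The number of arrays limits the precision. Covariation used the Pparg level as a covariate, and correlations with 100000 permutations in SciPy 1.17.1. The group and slope fits were tested on simulated data with independent noise for each feature on each array. Differences in spread between arrays and noise shared within an array were not simulated. Alternatives were other scalings, filters, blocks, weights, a covariate and each array left out; leaving out the 2 widest arrays was chosen after seeing the data.

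The members, lists and tests were chosen with earlier results of these data known. The genes named were all members, the 5 most and 5 least like Pparg, and of each list up to 4 members that passed, or else the 1 with the smallest p, with Mmp12, Tgfb1 and Xist. Rxra, Nr1h3, Fabp4, Cd36, Scd1, Hilpda, Cideb, Marco, Itgax and Cavin1 were added after their values were seen.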

Additional observations from a re-analysis of the deposited data

Results flagged for a closer look

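In groups of 4 or 5 arrays, 36 sets of values were looked at for an array far from the others of its group, and 5 held one. Chance alone marks about 1 group in 20. The cause was not tested for any.

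Pparg on beta6 null replicate 1 was -4.26, against -3.33 to -3.02 on the other 4 beta6 null arrays. Siglecf on the same array was -6.04, against -2.57 to -2.40 on the other 3 arrays with a value. This array had one of the 2 widest spreads of values, 1.998, and 5605 of its probes had no value.

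Cebpa on wild type replicate 2 was 2.33, against 0.61 to 1.11 on the other 4 wild type arrays. This was the other array of wide spread, 2.01, with 5509 probes without a value. Krt79 on wild type replicate 4 was -0.62, against 0.07 to 0.32 on the other 4 wild type arrays. The second Sfrp1 probe on TGFb1 replicate 3 was -0.43, against 0.41 to 0.57 on the other 4 TGFb1 arrays.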

How the results depend on the processing

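The Pparg rise in the TGFb1 group against beta6 null kept its sign in all 27 alternatives and its call in 16, and the Cidec fall in beta6 null against wild type kept its sign in all 26 and its call in 18. The cause of a lost call was not tested. Depth is not stated, and the number of arrays and the missing values limit what could be called. Array weights gained calls (limma): in beta6 null against wild type Pparg (-1.18, adjusted p = 0.0383) and Krt79 (-1.03, 0.0345), and in the TGFb1 group against beta6 null Krt79 (0.90, 0.0466), Lpl (1.61, 0.0452), Car4 (1.79, 0.0378) and Cebpb (0.86, 0.0379). Krt79 also passed in beta6 null against wild type without beta6 null replicate 1 (-1.24, 0.0496). No paired analysis was possible because the labels give no replicate numbers shared between groups.

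Pparg in the TGFb1 group against beta6 null lost its call under quantile normalisation (1.09), equal spread (1.01), the suffix block (1.80), the Xist covariate (1.93) and with the 2 arrays numbered apart left out (1.98). Cidec in beta6 null against wild type lost its call under quantile normalisation (-0.83), equal spread (-0.79), the 10 arrays of the 2 groups alone (-1.35), the suffix block (-1.32) and the Xist covariate (-1.26). With each array left out, Pparg ran from 1.63 to 1.95 and Cidec from -1.46 to -1.21.

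The called features in beta6 null against wild type, 48 higher and 78 lower, had 36 lower under quantile normalisation, 30 and 31 with equal spread, 19 and 26 with the 10 arrays alone, 29 and 35 with the suffix block, 43 lower once the 2 arrays numbered apart were left out, 127 and 269 under array weights, 0 and 0 with the Xist covariate and 118 lower without the 2 widest arrays. The 77 higher and 17 lower in the TGFb1 group against beta6 null became 8 and 7 under quantile normalisation, 8 and 3 with equal spread, 35 and 8 with the suffix block, 24 and 6 once the 2 arrays numbered apart were left out, 542 and 106 under array weights, 0 and 0 with the Xist covariate and 259 and 62 without the 2 widest arrays, with 198 higher among features measured on all 15 arrays. The 0 lower in the TGFb1 group against wild type became 1 with the 10 arrays alone and with array weights. The 1 slope called against Pparg became 22 under quantile normalisation, 73 with equal spread, and 0 with the Xist covariate, the suffix block or the 2 arrays numbered apart left out. With each array left out, beta6 null against wild type had 30 to 60 higher and 33 to 104 lower, and the other counts ran from 19 to 272 and 4 to 46 in the TGFb1 group against beta6 null, from 0 to 1 lower against wild type, and from 0 to 755 slopes.

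Signs that turned belonged to differences and slopes that had not passed. In the TGFb1 group against beta6 null, Cidec was -0.079 under quantile normalisation and -0.15 with equal spread. Plin2 was 0.10 and 0.12 there, 0.28 with array weights and 0.091 without the 2 widest arrays. Cebpa was -0.02 without centring, -0.058 without the 2 arrays numbered apart and -0.053 with the Xist covariate. With the suffix block Car4 was 0.19 in beta6 null against wild type, and Plin2 -0.001 in the TGFb1 group against wild type. Slopes against Pparg under quantile normalisation and equal spread were 0.30 and 0.42 for Krt79, 0.38 and 0.30 for Plin2, 0.13 and 0.15 for Cebpa, 0.17 and 0.25 for Cebpb and -0.73 and -0.63 for Sfrp1. With array weights Krt79 was 0.15 and Plin2 0.047, and without the 2 widest arrays Krt79 was 0.14, Plin2 0.001 and Cebpb 0.028. With each array left out, Cebpa ran from -0.13 to 0.20 and Plin2 from -0.39 to 0.091 in the TGFb1 group against beta6 null, Siglecf from -0.36 to 0.044 and Plin2 from -0.19 to 0.48 against wild type, in beta6 null against wild type Car4 from -1.03 to 0.17 and Plin2 from -0.004 to 0.67, and the Lpl slope from -0.093 to 0.57.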
